A study of Mus musculus with 6 samples.

Results

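The insulin and PI3K-Akt signalling genes described here are Akt1, Akt2, Pik3ca, Pik3r1, Insr, Irs1, Irs2 and Foxo1, read on arrays of whole mammary gland from 3 wild-type mice and 3 Elf5 knockout (KO) mice. Every probe set, a group of short array probes read as 1 value, whose annotation named 1 of these 8 genes and no other was taken, which gave 8 of 18193 genes and 26 of 45101 probe sets. The labels place both groups at pregnancy day 17 and the series' design text at lactation day 1, so no stage is assumed. How the Elf5 allele was made, the cells in which it is lost, and the strain and age of the mice are not stated in the labels. Each array is labelled as a biological replicate. The whole gland holds secretory epithelium, fat, stroma, vessels and immune cells, so fewer cells of a type and less RNA per cell cannot be told apart in these signals.

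Insulin binds its receptor, encoded by Insr, which phosphorylates the docking proteins Irs1 and Irs2. These recruit PI3K, made of a catalytic subunit (Pik3ca) and a regulatory subunit (Pik3r1), whose lipid product brings the Akt kinases to the membrane, where they are activated. Akt phosphorylates many proteins, among them Foxo1, a transcription factor that is then held out of the nucleus. In the mammary gland the pathway is known for driving glucose uptake and lipid synthesis in secretory cells, and Akt1 is the isoform best known for its part in lactation.

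On the log2 scale Akt1 and Irs2 had the largest negative differences among the members, and Akt2 differed less than Akt1 in every KO array on the brightest probe sets. The brightest Akt1 probe set had a mean signal of 724 ± 555 (SD, n = 3) in the KO against 2606 ± 625 (SD, n = 3) in wild type, whereas the brightest Akt2 probe set read 285 ± 165 (SD, n = 3) and 294 ± 50.1 (SD, n = 3). The only Irs2 probe set read 25.6 ± 37.7 (SD, n = 3) in the KO and 127 ± 77.1 (SD, n = 3) in wild type. For KO array 1 alone the log2 differences were smaller, -0.94 for Akt1 and -0.54 for Irs2. KO arrays 2 and 3 stood apart by a control ratio for RNA quality, given below, and Irs2 read only 4.3 and 3.4 there. Insr, Irs1, Pik3ca, Pik3r1 and Foxo1 overlapped between the groups on every probe set. No member passed the test across all probe sets at an adjusted p of 0.05.

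Signals are in arbitrary linear units, and each array was scaled by the authors to the same trimmed mean. Probe sets were compared as log2(signal + 16), so differences are KO minus wild type on that scale and understate changes of dim probe sets. Of the 26 member probe sets, 22 had a mean signal over the 6 arrays at or above 23.4, the 40th percentile, and entered the fit. The other 4, 1 each of Akt1, Pik3ca, Insr and Foxo1, read under 30 in every array. Of 27024 probe sets tested, limma called 0 (0%), with 4796 (17.7%) at an unadjusted p under 0.05. Taking 1 probe set per gene, limma called 119 of 10917 genes (1.09%; 1.02% higher and 0.0733% lower), and with the replicate number as a block, after which arrays of the same number are compared with each other, 1310 (12%). Each difference is given ± its moderated standard error (SE) from limma, and adjusted p-values come from the fit over all probe sets unless another is named.

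RNA quality and the disrupted gene were read in every array first. Elf5, an ETS transcription factor of luminal epithelium, read 12011, 8044 and 7244 in wild type against 5616, 4361 and 3128 in the KO on its brighter probe set. All 3 KO values lay under the wild-type values, with a difference of -1.06 ± 0.31 (adjusted p = 0.174; -0.66 in KO array 1), and the KO mean was 48% of the wild-type mean. On the other Elf5 probe set the KO mean was 33.7% of wild type, with a difference of -1.83 ± 0.61 (adjusted p = 0.206; -0.82 in KO array 1), so much Elf5 signal remained in the arrays labelled KO. The position of these probe sets relative to the disruption was not analysed here. Gapdh control probe sets near both transcript ends gave 3'/5' signal ratios of 0.833 to 1.09 for the wild-type arrays and 0.802 for KO array 1, against 3.89 for KO array 2 and 13.6 for KO array 3; a ratio near 1 is usual for intact RNA. Actb gave ratios of 1.20 to 2.04 for wild type, 1.58 for KO array 1, 1.87 for KO array 2 and 21 for KO array 3, so KO array 2 stood apart by Gapdh but not by Actb. Differences are also given for KO array 1 alone against the 3 wild-type arrays, a comparison with no spread among KO mice. Correlations between arrays were 0.83 to 0.95 within and 0.75 to 0.93 between groups.

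**Figure D1:**
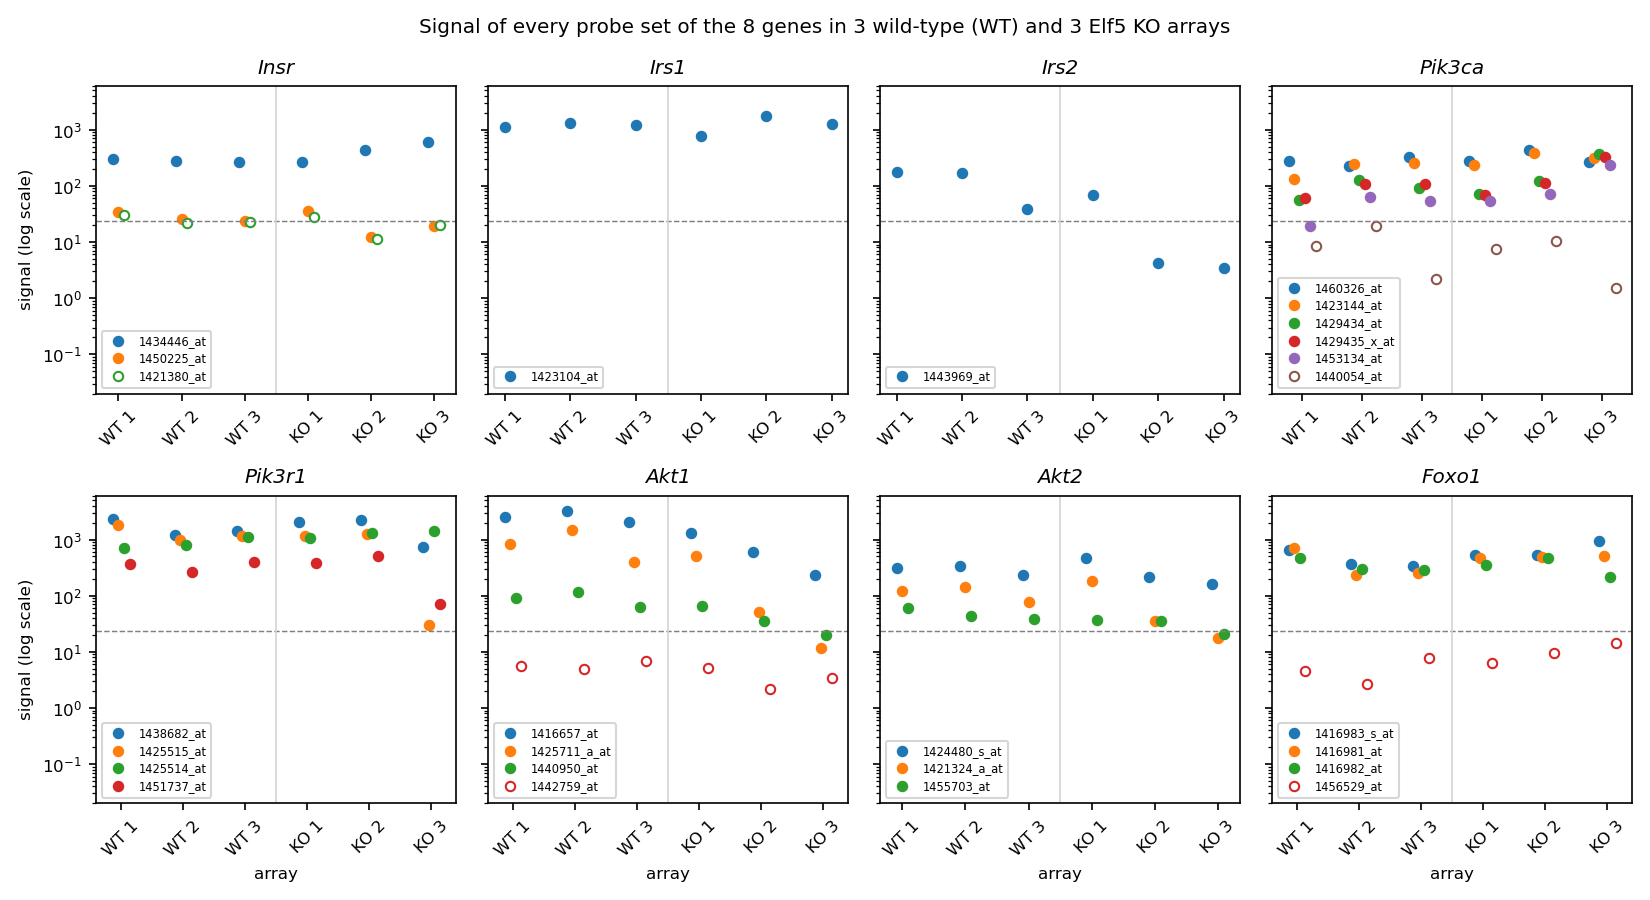
Signal on a log axis of each of the 26 probe sets in each array, 1 panel per gene and 1 colour per probe set; open circles mark the 4 probe sets under the filter, whose level of 23.4 is the dashed line. Akt1 and Irs2 signals are lowest in KO arrays 2 and 3, and 3 of the 4 Pik3r1 probe sets are lowest in KO array 3.

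Insr encodes the insulin receptor. Its brightest probe set, 1434446_at, read 305, 272 and 269 in wild type against 266, 434 and 614 in KO arrays 1, 2 and 3. The wild-type values were close together, KO array 1 lay just under them, and the other KO arrays lay above. The difference was 0.54 ± 0.36 (adjusted p = 0.428), and -0.07 for KO array 1 alone. A dim probe set, 1450225_at, read 24.0 to 34.6 in wild type against 12.1 to 36.1 in the KO and differed by -0.24 ± 0.33 (adjusted p = 0.702), and by 0.25 in KO array 1. These Insr probe sets differed in sign, and neither sign held in KO array 1. The third, 1421380_at, was under the filter at 11.3 to 29.7 in all arrays.

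Irs1 and Irs2 are the docking proteins that carry the receptor's signal to PI3K. Irs1, on 1423104_at, read 1113, 1317 and 1202 in wild type against 775, 1773 and 1270 in the KO. The KO values lay on both sides of the wild-type values, and the difference was 0.00 ± 0.35 (adjusted p = 0.996), and -0.63 in KO array 1. Irs2, on 1443969_at, read 174, 169 and 38.1 in wild type against 69.1, 4.3 and 3.4 in the KO. KO arrays 2 and 3 lay far under all other arrays, while KO array 1 lay between the wild-type values, so the groups overlapped. The Irs2 difference was -1.94 ± 0.67 (adjusted p = 0.215) and was -0.54 for KO array 1 alone. With 1 probe set per gene and the replicate block, Irs2 passed (limma adjusted p = 0.0265), whereas with the block over all probe sets it did not (0.0771). The KO array minus the wild-type array of the same number was -1.16, -3.19 and -1.48. Its signal in KO arrays 2 and 3 was under the filter level, so those values bound the difference poorly.

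The catalytic PI3K subunit gene Pik3ca had 6 probe sets, of which 5 entered the fit and all 5 had a higher mean in the KO. The brightest, 1460326_at, read 276, 230 and 325 in wild type against 274, 438 and 262 in the KO, a difference of 0.19 ± 0.33 (adjusted p = 0.764; -0.01 in KO array 1). The next, 1423144_at, read 135, 248 and 251 in wild type against 231, 386 and 313 in the KO (0.54 ± 0.36, adjusted p = 0.429; 0.16 in KO array 1). On both, the groups overlapped. The dimmer probe sets, 1429434_at, 1429435_x_at and 1453134_at, moved together over the 6 arrays, with pairwise correlations of 0.96 to 0.99. They were highest in KO array 3, at 374, 331 and 237, against 19.6 to 125 in wild type. They differed by 0.71 ± 0.54, 0.57 ± 0.51 and 1.00 ± 0.53, with adjusted p of 0.480, 0.543 and 0.337, and by -0.23, -0.29 and 0.28 in KO array 1. The correlations of these 3 with the brightest Pik3ca probe set were -0.10 to -0.07, so Pik3ca probe sets gave differing patterns across the same arrays. The annotation names the same GenBank record for the 3, so they are not independent readings.

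Probe sets of the regulatory subunit gene Pik3r1 disagreed in 1 array. In KO array 3, probe set 1425515_at read 30.1 and probe set 1425514_at read 1410, although both are annotated to the same GenBank record. In the other 5 arrays they read 994 to 1798 and 693 to 1326. The brightest Pik3r1 probe set, 1438682_at, read 2336, 1211 and 1391 in wild type against 2054, 2183 and 722 in the KO. The fourth, 1451737_at, read 262 to 390 in wild type, 387 in KO array 1, 514 in KO array 2 and 72.0 in KO array 3. KO array 3 was thus the lowest array for 3 of the 4 probe sets and the highest for the fourth of them, 1425514_at. The differences were -0.09 ± 0.47, -1.66 ± 1.09, 0.56 ± 0.31 and -0.40 ± 0.62 for 1438682_at, 1425515_at, 1425514_at and 1451737_at, with adjusted p from 0.353 to 0.926, and 0.38, -0.16, 0.30 and 0.20 in KO array 1. Without KO array 3, which also had the highest Gapdh ratio, 1425515_at differed by -0.08, 1438682_at by 0.42 and 1451737_at by 0.40, so the negative sign of the last pair rested on that array. For 1438682_at it also turned, to 0.19, without wild-type array 1.

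Akt1 and Akt2 encode serine-threonine kinases of closely related sequence from separate genes. The upstream sequences of both are shown because these isoforms are contrasted below and Elf5 is an ETS factor. The sequences are the 250 bases before annotated start sites from RefSeq, build GRCm38.p6, on the gene's strand, with capitals marking the ETS core GGAA and the FoxO site TGTTTAC on either strand. The first Akt1 start (chr12:112674885-112675134, minus strand), the second Akt1 start (chr12:112674277-112674526, minus strand) and the first of 4 Akt2 starts (chr7:27591302-27591551, plus strand) read as follows.
Akt1 first start: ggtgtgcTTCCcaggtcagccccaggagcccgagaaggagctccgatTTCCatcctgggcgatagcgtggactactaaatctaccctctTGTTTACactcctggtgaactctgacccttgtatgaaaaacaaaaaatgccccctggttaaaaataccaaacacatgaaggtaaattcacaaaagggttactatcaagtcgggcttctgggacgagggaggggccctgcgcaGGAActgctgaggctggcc
Akt1 second start: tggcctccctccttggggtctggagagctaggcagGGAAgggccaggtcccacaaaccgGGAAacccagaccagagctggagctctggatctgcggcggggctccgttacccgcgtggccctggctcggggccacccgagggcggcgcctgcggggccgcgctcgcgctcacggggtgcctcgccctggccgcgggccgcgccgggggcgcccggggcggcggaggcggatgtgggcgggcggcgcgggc
Akt2 first start: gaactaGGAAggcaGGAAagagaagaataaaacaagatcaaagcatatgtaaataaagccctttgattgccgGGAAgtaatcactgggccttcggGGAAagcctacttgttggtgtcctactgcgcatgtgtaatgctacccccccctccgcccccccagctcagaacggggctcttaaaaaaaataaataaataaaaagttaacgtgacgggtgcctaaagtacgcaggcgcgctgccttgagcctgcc

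The first Akt1 window held 3 matches to GGAA and 1 to TGTTTAC, and the second Akt1 window 2 and 0. The Akt2 window held 4 matches to GGAA and 0 to TGTTTAC. It also held 1 match to TTCNNNGAA, the Stat site, which overlaps a GGAA match. GGAA occurs in 93.4% of 32851 windows of this length before annotated starts, TGTTTAC in 3.17% and TTCNNNGAA in 7.02%. Of the 12 windows listed for 7 of the 8 members, 11 held GGAA, 1 held TGTTTAC and 1 held TTCNNNGAA. The matches are letters only, and binding was not measured here.

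Akt1 was lower in the KO on all 3 of its probe sets in the fit. The brightest, 1416657_at, read 2521, 3269 and 2027 in wild type against 1327, 607 and 236 in KO arrays 1, 2 and 3. Every KO value lay under every wild-type value. The difference was -2.11 ± 0.55 (adjusted p = 0.155), and the KO mean was 27.8% of the wild-type mean. With 1 probe set per gene the adjusted p was 0.0798, and with the replicate block added it was 0.0203, so Akt1 fell in that fit. With the block over all probe sets Akt1 did not pass (limma adjusted p = 0.0673). The passing fit was chosen after seeing the data, and the labels do not say that replicate numbers pair the animals. KO array 1 alone was lower by -0.94. With the log2 Gapdh ratio as a covariate the difference was -0.99 (limma adjusted p = 0.620).

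The second Akt1 probe set, 1425711_a_at, read 823, 1451 and 393 in wild type against 512, 50.7 and 11.8 in the KO. KO array 1 lay above wild-type array 3 here, so the groups overlapped, and the difference was -3.00 ± 0.95 (adjusted p = 0.195), or -0.59 in KO array 1. The third, 1440950_at, read 89.4, 117 and 62.7 in wild type against 65.2, 36.1 and 19.6 in the KO, a difference of -0.96 ± 0.39 (adjusted p = 0.256; -0.35 in KO array 1). On all 3, KO array 1 was the highest and KO array 3 the lowest of the KO arrays, and their pairwise correlations over the 6 arrays were 0.97 to 0.99. The fourth, 1442759_at, read 2.2 to 7.0 in all arrays, under the filter. Leaving out KO array 1, the only KO array with a Gapdh ratio near 1, the first and second probe sets differed by -2.70 and -4.21 and passed, as did Irs2 at -2.64. Both KO arrays left then had high Gapdh ratios, and 1 of them a high Actb ratio, so in those calls genotype and these ratios cannot be told apart.

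Akt2 was not lower in every KO array on its brightest probe set. That probe set, 1424480_s_at, read 310, 335 and 238 in wild type against 472, 218 and 164 in the KO. KO array 1 was the highest of all 6 arrays and KO arrays 2 and 3 the lowest, and the difference was -0.17 ± 0.41 (adjusted p = 0.837). The second, 1421324_a_at, read 120, 143 and 76.2 in wild type against 184, 35.0 and 17.6 in the KO, a difference of -0.85 ± 0.61 (adjusted p = 0.455). On both, KO array 1 was higher than wild type, by 0.67. The third, 1455703_at, read 59.2, 44.2 and 37.9 in wild type against 37.2, 34.7 and 21.1 in the KO; its groups did not overlap, and it differed by -0.43 ± 0.31 (adjusted p = 0.459; -0.23 in KO array 1). In all 3 Akt2 probe sets KO array 3 was the lowest array, and the KO arrays stood in the same order as for Akt1. Correlations with the 3 Akt1 probe sets over the 6 arrays were 0.68 to 0.79 for the brightest Akt2 probe set. They were 0.84 to 0.93 for the other Akt2 probe sets, so the isoforms' profiles were partly alike.

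**Figure D2:**
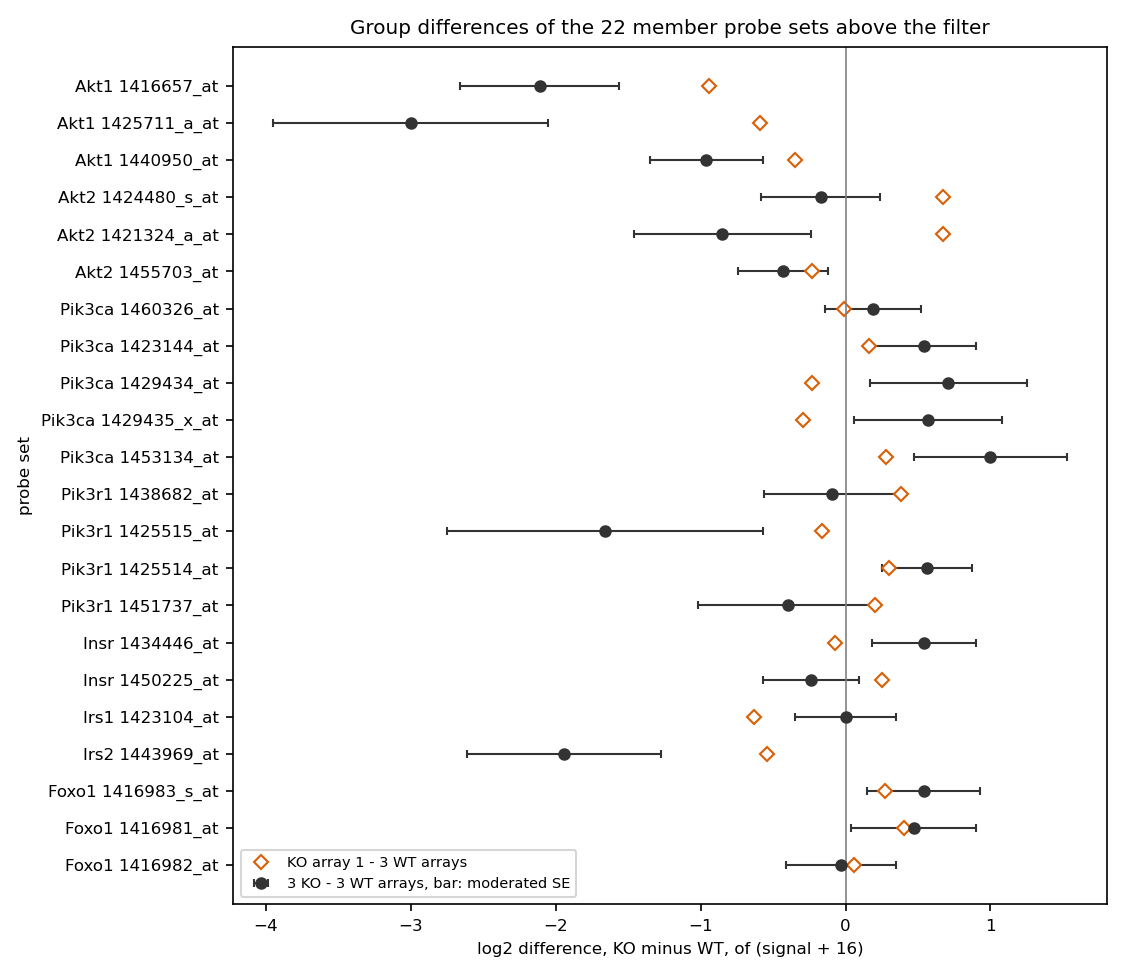
Log2 difference, KO minus wild type, of the 22 member probe sets in the fit, with limma's moderated SE as bars (filled circles), and the difference of KO array 1 alone from the wild-type mean (open diamonds). The 3 Akt1 probe sets and Irs2 lie left of 0 by both measures and closer to 0 in KO array 1, while the brightest Akt2 probe set lies at -0.17 over all arrays and at 0.67 in KO array 1.

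The Akt isoforms were then contrasted within each array. For the brightest pair of probe sets, the log2 change of Akt1 minus that of Akt2, each relative to its wild-type mean, was -0.10, 0.16 and -0.06 in wild type against -1.60, -1.65 and -2.58 in the KO. All 3 KO arrays lay under all wild-type arrays. The contrast was -1.94 ± 0.33 (SE from the spread in each group, n = 3; two-sided exact permutation p = 0.1, the smallest that 20 splits of the arrays allow). In KO array 1 alone it was -1.60, and leaving out each array in turn gave -2.11 to -1.63. The size of the contrast depended on the probe sets. With the brightest Akt1 probe set it was -1.27 and -1.68 against the other Akt2 probe sets. With the second Akt1 probe set it was -2.84, -2.16 and -2.57 against the 3 Akt2 probe sets in order of brightness. With the third Akt1 probe set it was -0.79, -0.11 and -0.53. Of the 9 pairings of probe sets in the fit all 9 had a negative contrast, and in 6 the KO arrays did not overlap wild type. The pairings at -2.57, -0.11 and -0.53 overlapped. In the pairing at -0.11, KO arrays 2 and 3 lay above every wild-type array, at 0.32 and 0.37 against -0.08 to 0.06. Its negative sign rested on KO array 1, at -1.02. In KO array 1 all 9 were negative too, from -1.61 to -0.11, and for the second Akt1 probe set against the brightest and the dimmest Akt2 probe sets KO array 1 lay far above KO array 2 (-1.26 against -3.18, and -0.36 against -3.27). These pairings reuse the same 6 probe sets and arrays and are not independent. The share of other pairs of probe sets without overlap was not computed, so the count has no background.

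**Figure D3:**
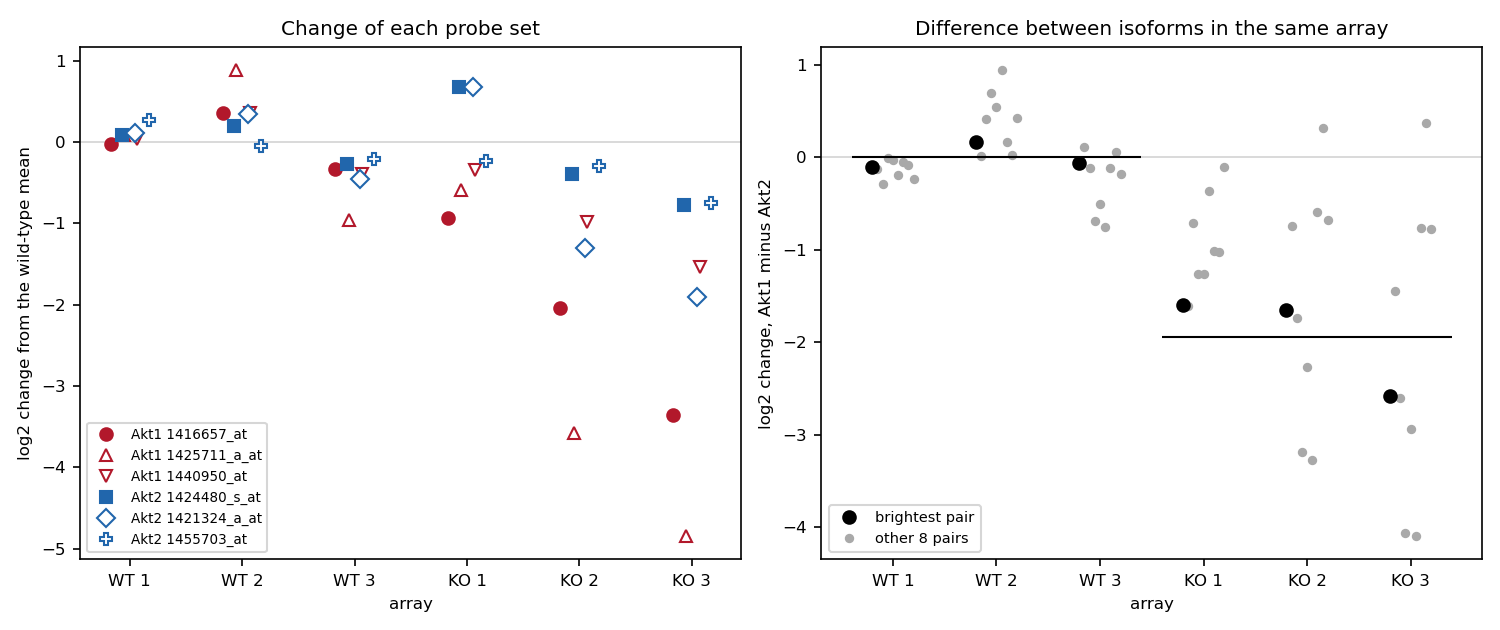
Left, log2 change of each Akt1 (red) and Akt2 (blue) probe set from its wild-type mean in each array; right, Akt1 change minus Akt2 change in the same array for the 9 pairings, with the brightest pair in black and its group means as lines. The brightest pair lies between -0.10 and 0.16 in wild type and between -2.58 and -1.60 in the KO.

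Genes whose log2 signals followed the brightest Akt1 probe set over the 6 arrays were ranked among 12539 named genes. The 5 highest Pearson correlations, 0.996 to 0.999, were with Nectin1, a cell adhesion protein, Ppp2r3a, a regulatory subunit of protein phosphatase 2A, Gorasp1, a Golgi stacking protein, Pdzd11 and St6galnac1, a sialyltransferase. Ppp2r3a read 1017, 1228 and 883 in wild type against 522, 265 and 93.9 in the KO. All 5 were lower in every KO array than in every wild-type array. The Akt1 probe set used to choose them has the same separation, so it follows from the choice. The 5 most like Akt2 were Plvap, an endothelial diaphragm protein, at 0.999, and Zfp574, Gpr19, Hdac10 and Foxred1 at 0.978 to 0.985. Plvap read 277, 311 and 172 in wild type against 665, 144 and 77.8 in the KO. As for Akt2, KO array 1 was the highest array, which also follows from the choice. Each correlation rests on 6 arrays.

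Foxo1 encodes the forkhead factor that Akt phosphorylates. Its brightest probe set, 1416983_s_at, read 662, 367 and 335 in wild type against 526, 520 and 942 in the KO, a difference of 0.54 ± 0.39 (adjusted p = 0.458; 0.27 in KO array 1). A second, 1416981_at, read 705, 236 and 251 in wild type against 465, 496 and 504 in the KO (0.47 ± 0.43, adjusted p = 0.555; 0.40 in KO array 1). Wild-type array 1 was high on both and made the groups overlap. The third, 1416982_at, read 282 to 461 in wild type against 217 to 468 in the KO and differed by -0.03 ± 0.38 (0.06 in KO array 1). The fourth read 2.7 to 14.3 and was under the filter.

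Over the 22 member probe sets in the fit, 12 had a lower and 9 a higher mean in the KO and Irs1 stood at 0.00, with a median difference of -0.06 against -0.09 over all probe sets tested. In 2 of them, both lower, the groups did not overlap, against 12.7% of all probe sets tested that were lower, 11.9% that were higher and 24.6% in either direction. The members' share was no higher than that background. At an unadjusted p under 0.05 stood 4 of the 22, the 3 Akt1 probe sets and Irs2, all lower, against 17.7% of all probe sets tested at that level in either direction and 9.23% that were lower. Their share is close to the first of these, and the 3 Akt1 probe sets are not independent of each other. With 1 probe set per gene and the replicate block, 2 of the 8 genes, Akt1 and Irs2, passed, both lower, against 12% of all genes called in either direction and 4.43% called lower in that fit.

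The rest of the pathway was read from 7 lists of 101 genes, of which 92 had a probe set and 88 entered the fit. None passed across all probe sets, 0 of 85 passed with 1 probe set per gene, and 9 did with the replicate block added, 5 higher and 4 lower, against 7.57% and 4.43% of all genes. The groups did not overlap in 11 that were higher and 9 that were lower, against 15.8% and 11.8% of 13197 genes, or 27.5% in either direction. Irs3, which entered the fit only through the KO arrays, was counted among the 5 called higher and among the 11. The median difference was 0.03, against 0.02 over all genes.

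Upstream of PI3K, 6 of 11 receptor adaptors and ligands had a higher and 4 a lower mean (median 0.30, and 0.06 in KO array 1). Only Irs3 passed with 1 probe set per gene and the block. Irs3, a docking protein found mostly in rodent fat cells, read 6.2, 31.8 and 7.0 in wild type against 76.1, 104 and 92.1 in the KO. Every KO value exceeded every wild-type value, and the difference was 1.87 ± 0.37 (adjusted p = 0.123; 1.67 in KO array 1). Its wild-type mean of 15.0 was under the filter level of 23.4, so Irs3 entered the fit only through the KO arrays, and its call is given no weight here. Sh2b1, an adaptor of the insulin receptor, differed by -1.12 ± 0.51 but by -0.16 in KO array 1. Gab1, a docking protein that binds PI3K, differed by 0.93 ± 0.48 but by 0.26 in KO array 1 (-1.05 over all arrays on its dimmest probe set).

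Among brakes on the signal, 8 of 13 had a higher and 5 a lower mean (median 0.33, and 0.14 in KO array 1). Of these, 1 rose and 1 fell with 1 probe set per gene and the block, against 7.57% and 4.43% of all genes in that fit. Grb10, which binds the insulin receptor and dampens it, read 345, 176 and 324 in wild type against 720, 655 and 604 in the KO. The KO arrays were close together and all above wild type (1.23 ± 0.34, adjusted p = 0.169; 0.0358 with 1 probe set per gene and the block; 1.36 in KO array 1). Dimmer Grb10 probe sets differed by -0.37 and -0.58. Inpp5k, a phosphatase that removes the PI3K lipid product, read 876, 553 and 802 in wild type against 497, 228 and 215 in the KO (-1.28 ± 0.39, adjusted p = 0.187; 0.0333 with 1 probe set per gene and the block; -0.54 in KO array 1). Trib3, a pseudokinase that binds Akt, differed by -0.89 ± 0.36, without overlap, and by -0.67 in KO array 1.

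Of the other PI3K subunits 9 of 10 had a higher mean (median 0.17, and 0.34 in KO array 1), and 0 passed in any of these fits. Pik3r4, the partner of the class III enzyme, read 72.5 to 78.5 in wild type against 111, 191 and 430 in the KO (1.31 ± 0.45; 0.47 in KO array 1), with KO array 3 far above the rest. Pik3r5 differed by 0.60 ± 0.32 (0.62 in KO array 1). Pik3cd, a catalytic subunit found mostly in leukocytes, was the 1 with a lower mean, at -0.72 ± 0.35 and -0.34 in KO array 1 (0.31 over all arrays on a dimmer probe set).

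At the level of Akt and mTOR, 11 of 17 genes had a lower and 6 a higher mean (median -0.36, and -0.05 in KO array 1). Akt1s1, an mTOR complex subunit that Akt phosphorylates, read 708, 926 and 608 in wild type against 509, 236 and 54.3 in the KO. Akt1, Akt2, Irs2 and Elf5 had the same order of KO arrays, in which the Gapdh ratios rise. Akt1s1 differed by -1.84 ± 0.64 and fell with 1 probe set per gene and the block (limma adjusted p = 0.0422), but KO array 1 alone differed by -0.52. Mlst8, shared by both mTOR complexes, differed by -0.86 ± 0.33 (-0.52 in KO array 1). The S6 kinase gene Rps6kb2, at 3.2 in KO array 3, differed by -1.44 ± 0.67 but by -0.16 in KO array 1.

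Among other Akt substrates 7 of 11 had a lower mean (median -0.16, and -0.20 in KO array 1). The cell cycle inhibitor Cdkn1b read 209 to 236 in wild type against 316, 393 and 963 in the KO (1.07 ± 0.43; 0.46 in KO array 1). Acly, which makes the acetyl-CoA used for lipid synthesis, differed by -0.94 ± 0.48 and fell with 1 probe set per gene and the block (limma adjusted p = 0.0220), but by -0.20 in KO array 1. Tbc1d1, a regulator of glucose transporter traffic, differed by 0.69 ± 0.36, with the same 0.69 in KO array 1, and by -0.79 and -0.98 on other probe sets.

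FoxO target genes had a median of 0.45 (0.39 after quantile normalization and 0.06 in KO array 1), with 10 of 16 higher and 6 lower. Of these, 3 rose with 1 probe set per gene and the block, against 7.57% of all genes called higher in that fit. That fit was chosen after seeing the data. Catalase, Cat, read 1272, 996 and 1461 in wild type against 2924, 2662 and 4903 in the KO. All KO arrays were above all wild-type arrays, by 1.44 ± 0.32 (adjusted p = 0.142; 0.0156 with 1 probe set per gene and the block) and by 1.24 in KO array 1. The stress-response gene Gadd45a differed by 1.83 ± 0.47 (adjusted p = 0.152; 0.0145 with 1 probe set per gene and the block; 1.08 in KO array 1). Sesn1, an antioxidant and mTOR-restraining protein, read 77.5, 88.0 and 97.4 in wild type against 195, 260 and 1088 in the KO (1.96 ± 0.57, adjusted p = 0.175; 0.0273 with 1 probe set per gene and the block; 1.03 in KO array 1). Further Sesn1 probe sets gave 1.84 and 1.93, and a dim one -0.30. These genes are also regulated by factors other than FoxO.

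Glucose and lipid genes driven by insulin had a median of -0.54 (-0.34 after quantile normalization and -0.03 in KO array 1), with 8 of 10 lower. Slc2a1, the glucose transporter Glut1, read 2077, 1224 and 1455 in wild type against 931, 710 and 1078 in the KO. Every KO value was under every wild-type value, by -0.78 ± 0.32 (adjusted p = 0.260), as on both other Slc2a1 probe sets (-0.98 and -1.74), and KO array 1 alone differed by -0.72. The glycolytic enzyme gene Pfkl differed by -1.10 ± 0.44 (-0.39 in KO array 1). Scd2, a fatty acid desaturase, differed by -0.96 ± 0.55 and fell with 1 probe set per gene and the block (limma adjusted p = 0.0378), although KO array 1 differed by 0.19.

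**Figure D4:**
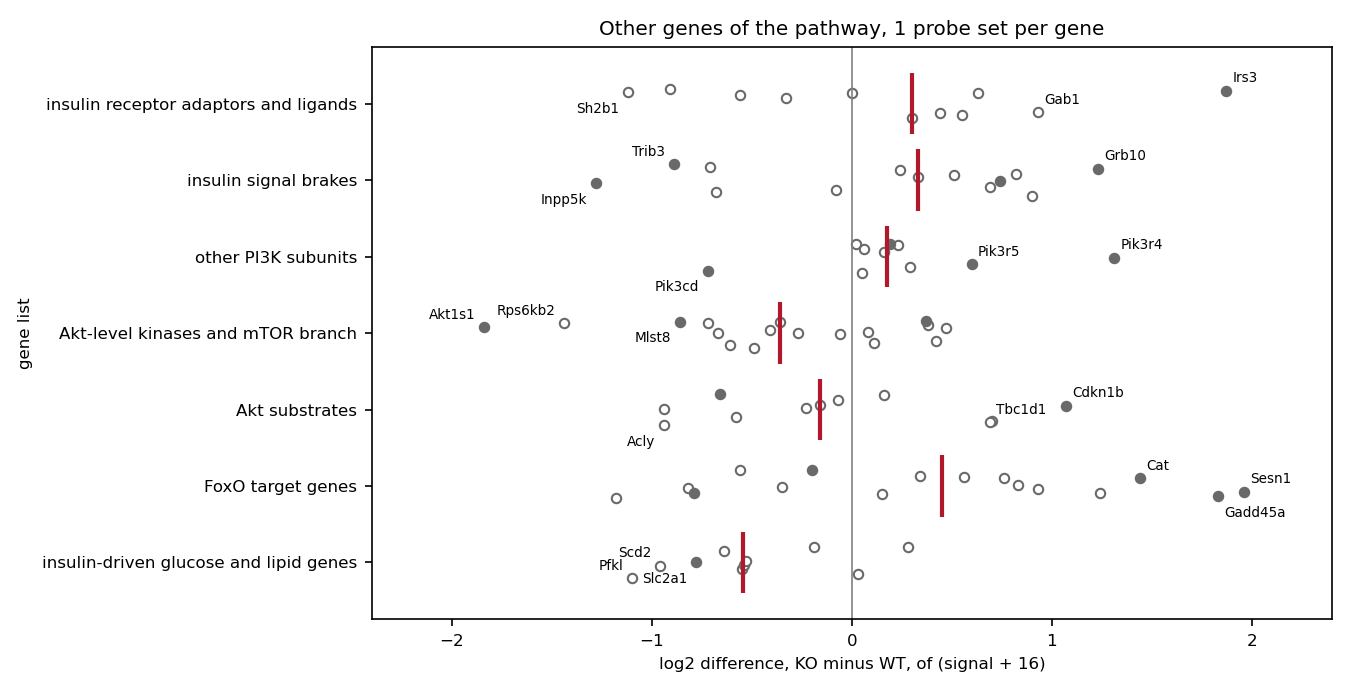
Log2 difference, KO minus wild type, of the pathway genes in the fit by list, 1 probe set per gene; filled points have groups that do not overlap, red lines are list medians, and the 3 genes of smallest p in each list are named. List medians run from -0.54 for glucose and lipid genes to 0.45 for FoxO targets, and each list spans both sides of 0.

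Markers of the gland's cell types moved beside these genes. All 8 milk-secreting markers had a lower mean, with summed signals of 71467 to 200998 in wild type against 50817 to 90105 in the KO. Their median difference was -0.67, and -0.37 in KO array 1. After quantile normalization Csn1s1, Csn2, Csn3, Wap and Glycam1 differed by only -0.14 to -0.02. Lalba, Btn1a1 and Xdh then differed by -0.97, -0.63 and -1.56, so the size of most of these differences depended on the scaling. Luminal markers summed to 12976 to 19270 and 13941 to 20741, with 3 of 7 higher. All 6 adipocyte markers on the array had a higher mean, with sums of 17805 to 20914 in wild type against 24313 to 34461 in the KO, and all 8 fibroblast markers were higher, at 11142 to 17250 and 21548 to 31573. Macrophage markers were higher in 5 of 6 (6689 to 9570 and 8989 to 12491), myoepithelial in 2 of 6 (12864 to 17274 and 9978 to 14454) and endothelial in 3 of 6 (1033 to 1178 and 911 to 1682). Lymphocyte markers were higher in 4 of 6 (333 to 527 and 473 to 907). All 6 skeletal muscle markers were higher (289 to 3976 and 1478 to 7010). No marker stood at 0 in any array. The part of these cell types in the results on Akt1, Irs2 and the pathway lists was not tested.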

How the data were processed

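RNA of 6 whole glands was measured on 6 one-colour Affymetrix arrays. The authors deposited linear signal intensities; the submitters' processing notes name MAS5 and affy, without versions, and no genome build was needed. The number of arrays limits the precision. Groups and replicate numbers came from the titles; p-values measure the spread between the labelled animals.

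Of the probe sets that are no controls, 34945 were annotated to 1 gene, 932 to several and 9160 were not listed; the platform annotation was used, and all 8 member symbols matched the current gene table. limma 3.58.1 in R 4.3.3 (lmFit, eBayes with intensity trend) was run on log2(signal + 16) over all non-control probe sets at or above the 40th percentile of mean signal, with Benjamini-Hochberg adjustment and a threshold of 0.05. For the lists, the probe set with the highest mean stood for a gene. The Akt contrast used a two-sided exact permutation test. The fits were tested on simulated data. Alternatives were scaling, pseudocount, filter, variance trend, RNA quality, 1 probe set per gene, the block, and each array left out, with the set of probe sets kept.

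The replicate number was used as a block in an alternative fit, although the labels do not say that numbers pair the animals. Deviations from group means correlated at 0.39, 0.27 and 0.25 between arrays of the same number 1, 2 and 3. Between different numbers they correlated at 0.21 or less. These correlations come from the same signals as the fit, and with 3 arrays per group they depend on each other. They cannot decide whether the numbers pair the animals. The members and lists were chosen with earlier results of these data known. Genes named were all members, the 3 of smallest p in each pathway list, and the 5 most correlated with Akt1 and with Akt2, passing over clone names. Upstream sequences were matched by symbol, and any member window on 1 chromosome was left out. Background windows on that chromosome were kept.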

Additional observations from a re-analysis of the deposited data

How the results depend on the processing

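The member probe sets called numbered 0 in 11 alternative fits over all arrays or the 4 arrays with a Gapdh ratio under 2, with the replicate block among them, and 2 of 8 with 1 probe set per gene and the block, an alternative chosen after seeing the data. There the pathway genes called went from 0 to 9. All calls went from 0 to 119 with 1 probe set per gene and to 1310 with the block added; the first tests fewer features, and the cause of the second was not tested. Leaving out each array gave 0 to 720 calls, 0 to 3 members and 0 to 1 pathway genes, the high values without KO array 1. Without that array 7770 probe sets were at an unadjusted p under 0.05, against 2886 to 3826 without another. The blocked fit over all probe sets changed no call. The Akt contrast was -1.97 to -1.87 under other scalings and pseudocounts, -1.94 with the replicate block and -1.60 in low-ratio arrays. The 8 other probe set pairings in the fit gave -1.27, -1.68, -2.84, -2.16, -2.57, -0.79, -0.11 and -0.53. With the Akt1 probe set under the filter, 1442759_at, it was 0.01, 0.69 and 0.27, where that probe set holds little signal.

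The 3 Akt1 probe sets in the fit and Irs2 kept their sign in every alternative run, from -2.70 to -0.94 for 1416657_at (adjusted p 0.0203 to 0.734) and from -3.16 to -0.54 for Irs2 (0.0265 to 0.992). So did Akt2 1455703_at, Pik3ca 1423144_at and 1453134_at, Pik3r1 1425514_at, and Foxo1 1416981_at and 1416983_s_at. A sign that held was thus not particular to Akt1 and Irs2. Signs of the remaining member probe sets turned, among them Akt2 1421324_a_at, Pik3r1 1425515_at, Pik3ca 1429434_at and Insr 1434446_at, which were not near 0. With median centring, after which the median over all probe sets was 0.13 against -0.09, Akt2 1424480_s_at was 0.05, Pik3r1 1438682_at 0.13, Irs1 0.21 and Foxo1 1416982_at 0.19; quantile normalization gave Insr 1450225_at 0.01. With the Gapdh covariate, values were 0.51 and 0.37 for Akt2 1424480_s_at and 1421324_a_at, -0.23 and -0.31 for Pik3ca 1429434_at and 1429435_x_at, 0.52, 0.36 and 0.55 for Pik3r1 1438682_at, 1425515_at and 1451737_at, -0.01 and 0.03 for Insr 1434446_at and 1450225_at, and 0.22 for Foxo1 1416982_at. In low-ratio arrays they were 0.67 for both Akt2 probe sets, -0.01, -0.23 and -0.29 for Pik3ca 1460326_at, 1429434_at and 1429435_x_at, 0.38 and 0.20 for Pik3r1 1438682_at and 1451737_at, -0.07 and 0.25 for both Insr probe sets, and 0.06 for Foxo1 1416982_at. Leaving out single arrays gave -0.37 to 0.42 for Pik3r1 1438682_at, -0.90 to 0.40 for 1451737_at, -0.27 to 0.26 for Foxo1 1416982_at, -0.28 to 0.31 for Irs1, -0.03 to 0.32 for Pik3ca 1460326_at, -0.01 to 1.00 for 1429435_x_at and -0.58 to 0.14 for Akt2 1424480_s_at. The cause of these turns was not tested. Dim probe sets, Irs2 in KO arrays 2 and 3 among them, lie near background, which limits their differences.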
